A study of Mus musculus with 6 samples.

Results

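The 10 genes described here are long noncoding RNAs, *Malat1*, *Neat1*, *Miat*, *Tug1*, *Gas5*, *Snhg1*, *Snhg3*, *Snhg5*, *Snhg8* and *Snhg12*. They were taken by symbol from the gene count tables of mESCs and CPCCs, which together list 16279 genes. All 10 were listed for CPCCs and 9 for mESCs, where *Miat* was missing. The mESCs were male F1 embryonic stem cells of the cross C57BL/6 x CAST/EiJ, for which the study's methods give C57BL/6J mothers, grown without feeders in 2i medium with LIF, and each line was a clone grown from a single cell. The CPCCs were male cultures of the same cross, made from these mESC clones through embryoid bodies in medium with ascorbic acid and then passaged in medium with EGF and Fgf2. They are mixed cultures, labelled Cardiac Precursor Cells. Each cell type had 3 bulk RNA-seq libraries, S01 to S03 for mESCs and S04 to S06 for CPCCs, with 6442639 to 6907330 counts in mESCs and 8468819 to 11436062 in CPCCs. Since mESCs and CPCCs came from the same clones but the columns carry no clone or replicate number, libraries could not be paired.

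Long noncoding RNAs are transcripts that are not translated into protein. *Malat1*, *Neat1*, *Miat* and *Tug1* are known mainly as nuclear RNAs: *Malat1* collects at nuclear speckles, which store splicing factors, and *Neat1* is the scaffold of paraspeckles. *Gas5* and the *Snhg* genes are host genes: small nucleolar RNAs (snoRNAs) are cut out of their introns and guide the chemical modification or processing of ribosomal and other RNAs, while the spliced exons of many hosts are short-lived and are degraded by nonsense-mediated decay. Many snoRNA hosts start, like the genes of ribosomal proteins, with a 5′ terminal oligopyrimidine tract, a run of C and T that begins with a C.

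The sequences around the starts are shown because they were not used to choose the genes. Their relation to the levels given below was not tested. All are from RefSeq on GRCm38, the build of the count tables, and each runs from 45 bases before the annotated start to 24 bases after it. Of the 10 genes, 9 had a start in the RefSeq table, at the position that the count tables use. Capitals mark a C followed by at least 4 C or T that begins within 10 bases of the start, and the letters TATA between 40 and 16 bases before it. The 6 host genes are listed first, then 3 nuclear RNAs.
*Gas5*, chr1:161035121-161035190, plus strand: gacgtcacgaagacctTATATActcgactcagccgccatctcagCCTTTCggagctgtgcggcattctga
*Snhg1*, chr19:8723442-8723511, plus strand: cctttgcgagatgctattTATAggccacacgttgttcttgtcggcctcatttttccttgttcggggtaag
*Snhg3*, chr4:132353662-132353731, minus strand: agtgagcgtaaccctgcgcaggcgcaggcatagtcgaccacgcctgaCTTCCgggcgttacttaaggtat
*Snhg5*, chr9:88522873-88522942, minus strand: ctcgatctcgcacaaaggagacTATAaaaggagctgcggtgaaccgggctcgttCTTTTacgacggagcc
*Snhg8*, chr3:123508312-123508381, minus strand: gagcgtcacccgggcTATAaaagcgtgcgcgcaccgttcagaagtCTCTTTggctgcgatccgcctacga
*Snhg12*, chr4:132308633-132308702, plus strand: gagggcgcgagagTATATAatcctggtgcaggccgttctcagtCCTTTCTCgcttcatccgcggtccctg
*Malat1*, chr19:5802648-5802717, minus strand: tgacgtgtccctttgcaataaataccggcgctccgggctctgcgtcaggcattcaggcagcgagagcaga
*Miat*, chr5:112228924-112228993, minus strand: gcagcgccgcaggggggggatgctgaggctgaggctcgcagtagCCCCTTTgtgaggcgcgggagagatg
*Tug1*, chr11:3648790-3648859, minus strand: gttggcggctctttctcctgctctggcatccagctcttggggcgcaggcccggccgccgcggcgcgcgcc

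A tract with its C at the annotated start was present in 2 of the 6 host genes (*Gas5* and *Snhg8*) and in *Miat*, against 2.37% of 11645 genes of the count tables that had a start in the table. Within 10 bases of the start it was present in 5 of the 6 hosts, with *Snhg1* the exception, but also in 32.5% of the 11645 genes. The letters TATA were present in 5 of the 6 hosts, with *Snhg3* the exception, in 0 of the 3 nuclear RNAs and in 4.08% of the 11645 genes. Of 10 other snoRNA host noncoding RNAs with a start, 1 had a tract at the start, 4 had one within 10 bases and 1 had TATA. For 10 protein-coding snoRNA host genes with a start, these counts were 1, 3 and 0. Both searches were made only on the strand shown, and the TATA search was added after the sequences were seen. A match is a description of letters, not of a bound factor.

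The labels were checked against markers. All 10 pluripotency markers were listed in both cell types, with summed levels of 4411 to 4595 CPM (a gene's counts per 1000000 counts of the library) in mESCs and 116 to 251 CPM in CPCCs. Cardiac markers summed to 10.7 to 17.4 CPM in mESCs and 51.0 to 156 CPM in CPCCs, where 11 of 12 were listed and *Tbx5* was not. Only 4 of these 12 were tested, of which 1 was higher, while *Gata4*, *Isl1* and *Actn2* did not pass. A further 7 were listed only for CPCCs, and *Tbx5* only for mESCs. Mesenchymal and fibroblast markers summed to 10.9 to 15.2 CPM in mESCs and to 12111 to 17148 CPM in CPCCs, with all 10 listed there. Neural markers (6) went from 42.1 to 47.8 CPM to 512 to 624 CPM, and endoderm markers (7, of which *Afp*, *Ttr* and *Apoa1* were in neither table) from 1.71 to 7.09 CPM to 51.9 to 72.3 CPM. Endothelial and blood markers (6, of which *Gata1* was in neither table) went from 91.4 to 101.4 CPM to 14.1 to 34.7 CPM. Of that list only *Pecam1* and *Tek* were tested, of which *Pecam1* was lower and *Tek* did not pass, while *Cdh5*, *Kdr* and *Ptprc* were listed only for CPCCs. These lists moved with the cell type, as did every change below, and their part in the changes was not tested. In bulk samples, fewer cells of a type and less RNA per cell cannot be told apart. Of the CPCC libraries, S04 was the deepest and differed most from the others.

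*Malat1* and *Tug1* were higher in CPCCs, while most of the host RNAs were lower. Of the 12471 genes listed in both tables and passing a filter on low counts, 61.4% differed between the cell types with p under 0.05 after Benjamini-Hochberg adjustment over these genes, in the quasi-likelihood test of edgeR, 31.7% higher and 29.7% lower in CPCCs. All 9 members listed in both tables passed the filter, and 7 of them differed, a share near that of all genes. By direction, 5 of the 6 host RNAs were lower in CPCCs and 0 higher, and 2 of the 3 nuclear RNAs tested were higher and 0 lower. Without S04 these counts were 4 hosts lower, with *Gas5* no longer past the threshold, and 2 nuclear RNAs higher and 1, *Neat1*, lower. Fold changes are given as log2 of CPCC over mESC, and their median was -0.90 for the 6 hosts and 0.03 for all genes tested. For the same 7 members the ranges of mESCs and CPCCs did not overlap, which held for 69.7% of all genes tested.

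**Figure D1:**
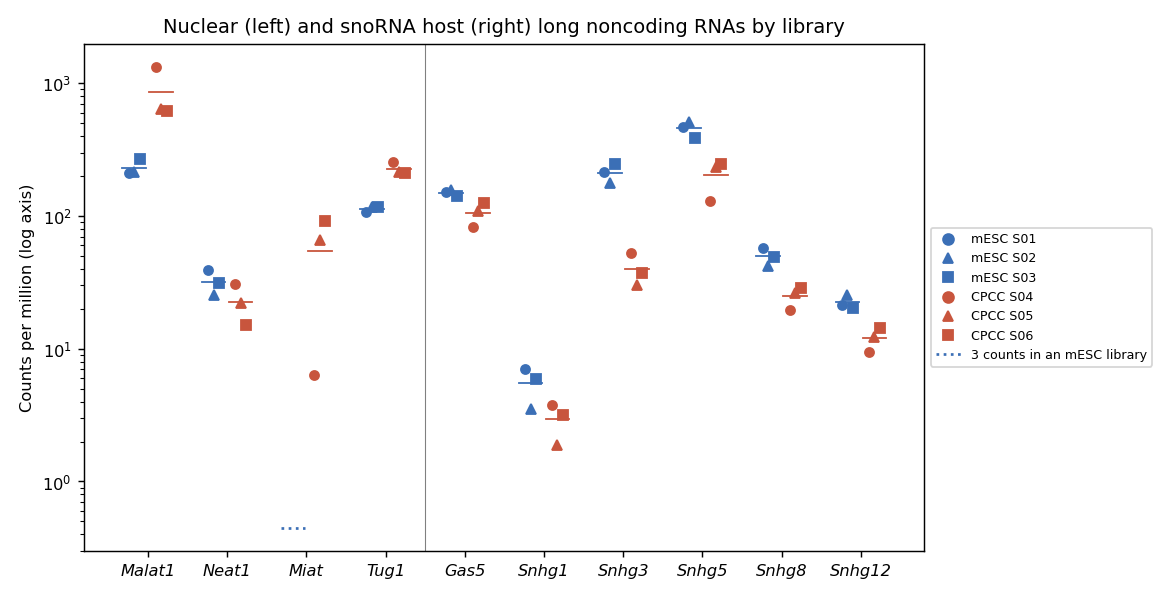
Level of each member in each library in CPM on a log axis, with mESC libraries in blue, CPCC libraries in red and a line at the mean of 3 libraries. The dotted line marks 3 counts in an mESC library for *Miat*, which is missing from the mESC table; *Malat1* and *Tug1* lie higher in every CPCC library than in any mESC library, and *Snhg3* lies lower.

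*Malat1* (chromosome 19, 5795690 to 5802672, minus strand) is a single-exon RNA that collects at nuclear speckles and is among the most abundant noncoding RNAs of many tissues. In mESCs its level was 209 CPM in S01, 215 in S02 and 267 in S03. In CPCCs it was 1325 CPM in S04, 643 in S05 and 622 in S06. Every CPCC library lay above every mESC library, and S04 was 2.13 times the lowest CPCC library. Its log2 fold change was 2.00 ± 0.34 (SE, with adjusted p = 0.000881, edgeR). Without S04 the log2 fold change was 1.47 (adjusted p = 3.15e-06, edgeR). Ranked by counts within a library, *Malat1* moved from between 719 and 1008 among 13761 genes in mESCs to between 54 and 144 among 15519 genes in CPCCs.

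*Tug1* (chromosome 11, 3639785 to 3648814, minus strand), first described as a gene raised by taurine, had 107, 116 and 117 CPM in S01, S02 and S03, against 255, 215 and 212 CPM in S04, S05 and S06. The libraries of a cell type were close together, and the groups did not overlap. The log2 fold change was 1.08 ± 0.18 (SE, with adjusted p = 0.000775, edgeR), and it lay between 0.93 and 1.18 when 1 library was left out. Of all members, *Tug1* had the smallest spread in either cell type, with the highest library at 1.09 times the lowest in mESCs and 1.20 times in CPCCs.

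*Neat1* (chromosome 19, 5824710 to 5845480, minus strand), the paraspeckle scaffold, had 39.4, 25.6 and 31.1 CPM in S01, S02 and S03, against 30.6, 21.99 and 15.1 CPM in S04, S05 and S06. The groups overlapped, since S04 lay above the mESC library S02. The log2 fold change was -0.41 ± 0.32 (SE, with adjusted p = 0.293, edgeR), so *Neat1* did not differ at the threshold. Without S04 the log2 fold change was -0.77 and passed it (adjusted p = 0.0266, edgeR). *Malat1* and *Neat1* lie 22.04 kb apart on the same strand, and the ratio of *Malat1* to *Neat1* counts within a library was 5.31, 8.41 and 8.58 in mESCs and 43.3, 29.2 and 41.1 in CPCCs. Since *Malat1* and the long form of *Neat1* end without a usual polyA tail, and cDNA was made from polyA+ RNA, these values hold only for the molecules that were captured. The annotated *Malat1* transcript holds 1 run of at least 8 A, of 12 bases, and that of *Neat1* 0.

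*Miat* (chromosome 5, 112213228 to 112228948, minus strand), also called Gomafu and known from neurons, the retina and the heart, had 6.38, 66.1 and 92.1 CPM in S04, S05 and S06. It is missing from the mESC table, whose genes each sum to 10 counts or more, and was therefore not tested. Against 3 counts per mESC library (0.447 CPM on average), its mean CPCC level of 54.9 ± 44.0 CPM (SD, n = 3) was at least 122.7-fold higher. The bound was 14.3-fold for S04 alone, 147.8-fold for S05 and 206-fold for S06, and it went from 81.0-fold without S06 to 176.9-fold without S04. S04 stood far below the others. The highest CPCC library was 14.4 times the lowest, where over genes with at least 1 CPM on average the median of this ratio was 1.55. The summed neural markers were also lowest in S04, at 512 CPM against 597 and 624 CPM in S05 and S06, while the cardiac markers were highest there, at 156 against 51.0 and 78.1 CPM. Their part in the spread of *Miat* was not tested.

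**Figure D2:**
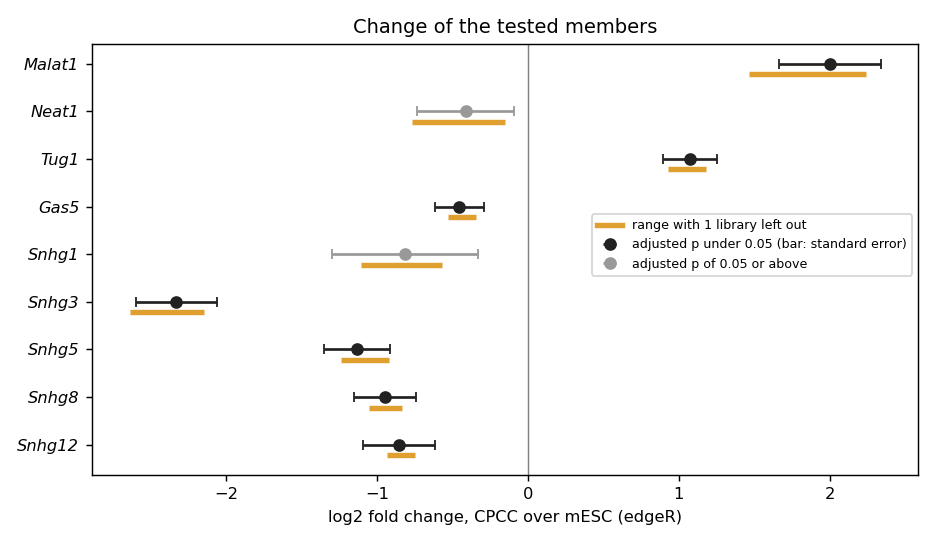
log2 fold change of the 9 tested members (x axis, CPCC over mESC) with its standard error as a bar, black where the adjusted p was under 0.05 and grey otherwise, and in orange the range over 6 fits that each leave out 1 library. *Malat1* and *Tug1* lie to the right of 0, the host genes lie to the left, and *Snhg3* is lowest at -2.33.

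*Snhg3* (chromosome 4, 132351933 to 132353686, minus strand) carries *Snora73a* and *Snora73b*, box H/ACA snoRNAs known for a part in the cutting of the ribosomal RNA precursor. It had 214, 178 and 245 CPM in S01, S02 and S03, against 52.2, 30.3 and 37.4 CPM in S04, S05 and S06. The lowest mESC library lay 3.41 times above the highest CPCC library. The log2 fold change was -2.33 ± 0.27 (SE, with adjusted p = 9.32e-05, edgeR), and it was also past a tested 2-fold threshold (adjusted p = 0.000834, edgeR's glmTreat). Among the members tested only *Snhg3* and *Malat1* passed that threshold.

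*Snhg5* (chromosome 9, 88521053 to 88522897, minus strand) carries the box C/D snoRNAs *Snord50a* and *Snord50b*, a class that guides methylation of ribose. It had 472, 513 and 386 CPM in S01, S02 and S03, against 131, 232 and 245 CPM in S04, S05 and S06. The groups did not overlap, and S04 was the lowest library. The log2 fold change was -1.13 ± 0.22 (SE, with adjusted p = 0.00173, edgeR).

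*Snhg8* (chromosome 3, 123507552 to 123508336, minus strand), which carries *Snora24*, ranged over the mESC libraries S01, S02 and S03 at 57.9, 42.1 and 49.1 CPM, and over S04, S05 and S06 at 19.5, 26.5 and 28.7 CPM. Its log2 fold change was -0.95 ± 0.21 (SE, with adjusted p = 0.00342, edgeR). *Snhg12* (chromosome 4, 132308678 to 132311024, plus strand), which carries *Snora16a*, *Snora44*, *Snora61* and *Snord99*, stood at 21.4 CPM in S01, 25.5 in S02 and 20.4 in S03, and at 9.53 CPM in S04, 12.2 in S05 and 14.3 in S06. Its log2 fold change was -0.85 ± 0.24 (SE, with adjusted p = 0.0119, edgeR), and without the mESC library S02 the call was lost (adjusted p = 0.0542, edgeR). For both genes the groups did not overlap and S04 was again the lowest library.

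*Gas5* (chromosome 1, 161035166 to 161038537, plus strand), named for its rise in cells whose growth is arrested, holds 9 genes annotated as snoRNAs, of which 1 bears the name of a microRNA, *Mir5117*. It had 151, 157 and 141 CPM in S01, S02 and S03, against 83.1, 109.5 and 124.5 CPM in S04, S05 and S06. The CPCC libraries lay below the mESC libraries, by a factor of 1.13 between the nearest of them. The log2 fold change of -0.46 ± 0.16 (SE, with adjusted p = 0.0349, edgeR) was the smallest of those past the threshold. The call was kept in only 1 of the 6 fits without 1 library, that without S06, and the largest adjusted p was 0.119 (edgeR), without the mESC library S02. *Snhg1* (chromosome 19, 8723487 to 8726326, plus strand), with 8 annotated snoRNAs, had 6.98 CPM in S01, 3.53 in S02 and 5.94 in S03, against 3.76 CPM in S04, 1.88 in S05 and 3.19 in S06. Its groups overlapped, and its log2 fold change of -0.81 ± 0.48 (SE, with adjusted p = 0.173, edgeR) did not pass the threshold.

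The snoRNAs of the members were themselves hardly measured. The tables hold 14 snoRNA genes, of which 3 lie inside members. *Snord22*, inside *Snhg1*, had 4 counts in S04, 9 in S05 and 0 in S06, and was missing from the mESC table. *Snora16a* inside *Snhg12* had 4, 4 and 3 counts in the same CPCC libraries, and *Snora44* inside *Snhg12* had 1 count in S01, 8 in S02 and 2 in S03, and was missing from the CPCC table. These counts are too low to compare, and reads could be shared with the host. The levels above are counts of the host genes and do not measure mature snoRNAs.

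**Figure D3:**
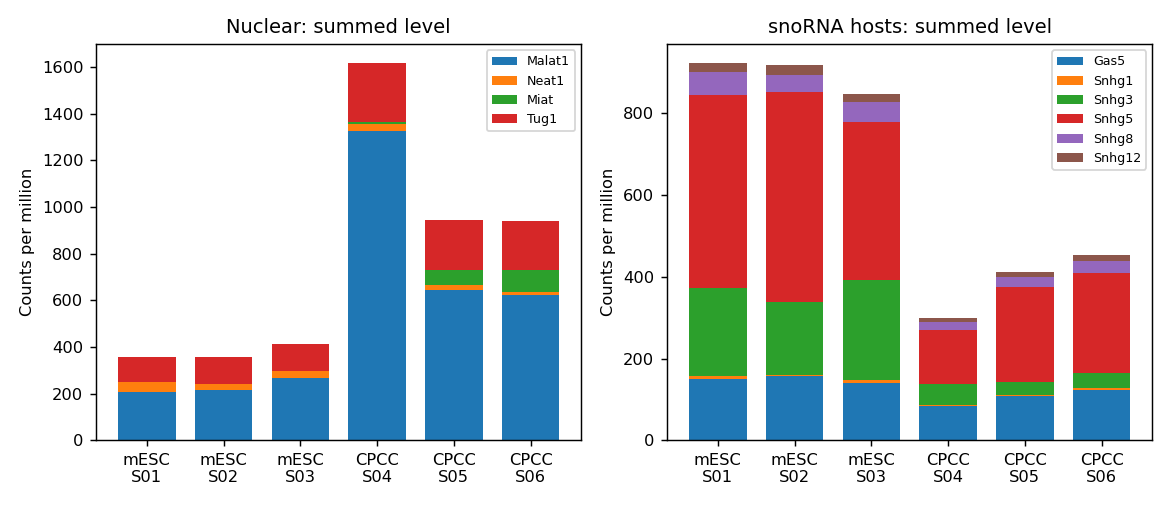
Summed level of the 4 nuclear RNAs (left) and the 6 snoRNA hosts (right) in each library, in CPM, stacked by gene. The nuclear sum is 355 to 415 CPM in mESCs and 941 to 1617 CPM in CPCCs, and the host sum is 848 to 924 CPM in mESCs and 299 to 454 CPM in CPCCs.

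Summed over genes, the nuclear RNAs took 355, 357 and 415 CPM in S01, S02 and S03, against 1617, 946 and 941 CPM in S04, S05 and S06. The hosts took 924, 919 and 848 CPM in the same mESC libraries, against 299, 413 and 454 CPM in S04, S05 and S06. S04 thus had the highest nuclear sum and the lowest host sum. The makeup of the host sum differed as well: *Snhg3* made up 19.4% to 28.9% of host counts in mESCs and 7.35% to 17.5% in CPCCs, and *Gas5* 16.4% to 17.1% and 26.5% to 27.8%, without overlap for either gene. The share of *Snhg5* overlapped, at 45.5% to 55.8% and 43.7% to 56.3%. *Malat1* made up 58.9% to 64.4% of the nuclear counts in mESCs and 66.1% to 82.0% in CPCCs. These shares are descriptions and were not tested.

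The order of the members' levels was taken per kilobase of annotated exon. The ratios, ranks and shares of counts given above are not corrected for length and serve only to compare mESCs with CPCCs. In mESCs the mean was highest for *Snhg3* (486 ± 76.7 CPM per kb, SD, n = 3) and *Snhg5* (455 ± 64.6 CPM per kb), whose ranges overlapped. *Snhg8* (64.0 CPM per kb) and *Gas5* (58.6 CPM per kb) came next with overlapping ranges, then *Snhg12* (37.0 CPM per kb) and *Malat1* (33.0 CPM per kb), which overlapped too. *Tug1* (16.7 CPM per kb), *Snhg1* (9.06 CPM per kb) and *Neat1* (1.54 CPM per kb) followed, each apart from its neighbours. In CPCCs the order was *Snhg5* (202 ± 62.6 CPM per kb, SD, n = 3), *Malat1* (124 ± 57.3 CPM per kb) and *Snhg3* (91.5 ± 25.5 CPM per kb), with each overlapping the next. *Gas5* (41.4 CPM per kb), *Tug1* (33.5 CPM per kb) and *Snhg8* (32.1 CPM per kb) likewise overlapped in turn, above *Snhg12* (19.8 CPM per kb), *Miat* (6.26 CPM per kb), *Snhg1* (4.87 CPM per kb) and *Neat1* (1.09 CPM per kb), of which *Miat* and *Snhg1* overlapped. The order depends on the transcript taken. With the annotated *Neat1* form of 3004 bases in place of 20771 its mESC level was 10.7 CPM per kb, and with the median length of all annotated *Gas5* transcripts (629 bases in place of 2556) that of *Gas5* was 238 CPM per kb. The median length for *Malat1* (606 bases in place of 6983) gave it 381 CPM per kb in mESCs and 1425 CPM per kb in CPCCs.

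**Figure D4:**
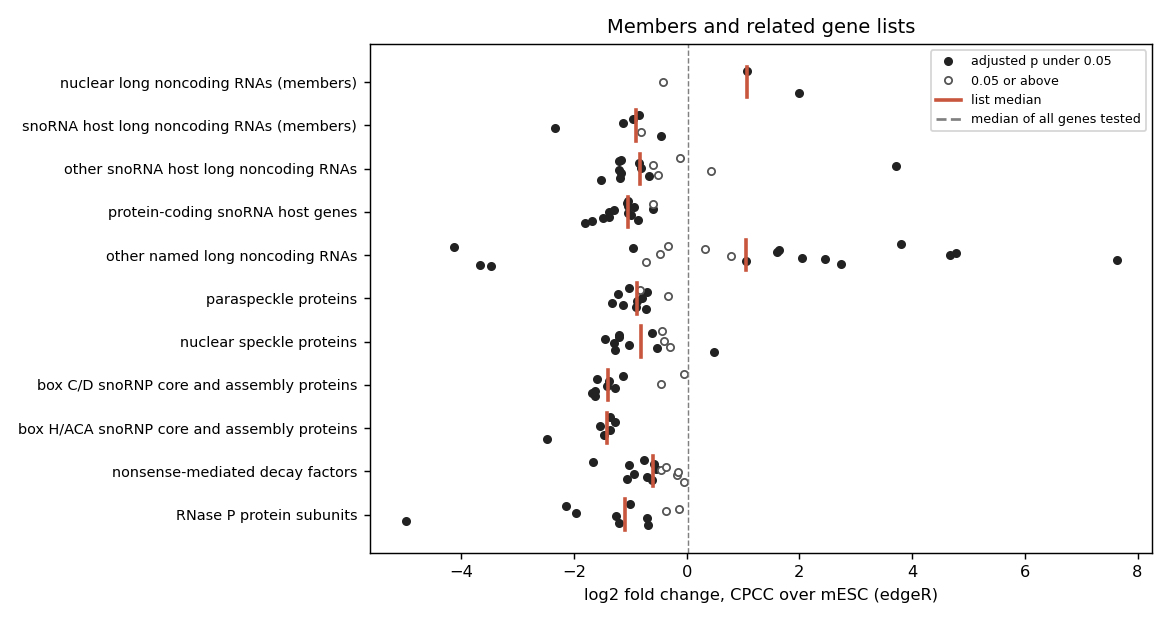
log2 fold change (x axis, CPCC over mESC) of each tested gene of the members and of 9 related lists, filled where the adjusted p was under 0.05. Red lines are list medians and the dashed line is the median of all genes tested (0.03); the medians of the snoRNA host and snoRNA protein lists lie to its left.

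Related genes were read from the same fit. Of 16 other snoRNA host noncoding RNAs, 14 were tested, of which 9 were lower and 1 higher in CPCCs, with a median log2 fold change of -0.83. *Snhg9* and *Snhg16* were in neither table. *Snhg4* fell from between 90.8 and 117 normalized CPM to between 25.5 and 41.3 (log2 fold change -1.52, adjusted p = 0.000423, edgeR). *Dancr* fell by 1.20 on the log2 scale (adjusted p = 0.000384, edgeR). *Snhg18* was the only gene of the list that rose, from between 3.68 and 4.68 to between 45.8 and 62.7 normalized CPM (log2 fold change 3.72, adjusted p = 5.41e-06, edgeR). The list's calls came to 6 in place of 10 without the mESC library S01.

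Genes that encode proteins and also hold snoRNAs were lower too. Of 15 such genes, 14 were lower and 0 higher, with a median log2 fold change of -1.05, and only *Eif4a2* did not pass. *Ncl*, the nucleolar protein nucleolin, fell from between 1172 and 1497 to between 273 and 480 normalized CPM (log2 fold change -1.81, adjusted p = 0.000129, edgeR). *Nop56* (log2 fold change -1.68, adjusted p = 9.44e-05, edgeR) and *Rpl7a* (-1.49, adjusted p = 0.000258, edgeR) fell as well. *Rpl7a* has processed pseudogenes that could share its reads.

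Most genes that encode proteins of snoRNA particles were lower in CPCCs, at the level of RNA. Of 10 genes for core and assembly proteins of box C/D particles, 8 were lower and 0 higher (median log2 fold change -1.40). *Nop56*, which is in this list as well as a host, *Nop58*, its partner (log2 fold change -1.63, adjusted p = 0.000106, edgeR), and *Fbl*, the methyltransferase fibrillarin (log2 fold change -1.62, adjusted p = 0.000592, edgeR), changed most. All 6 genes for proteins of box H/ACA particles were lower (median -1.42). *Dkc1*, the pseudouridine synthase dyskerin, fell from between 1199 and 1469 to between 186 and 316 normalized CPM (log2 fold change -2.48, adjusted p = 2.78e-05, edgeR). *Gar1* (log2 fold change -1.54, adjusted p = 0.000417, edgeR) and *Nhp2* (-1.47, adjusted p = 0.000237, edgeR) came next.

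Genes of nonsense-mediated decay, the pathway that removes the spliced exons of many host RNAs, were lower in 9 of 14 cases and higher in 0, with a median log2 fold change of -0.60. The list's calls came to 5 without the CPCC library S05. *Rbm8a* (log2 fold change -1.66, adjusted p = 0.000216, edgeR) and *Eif4a3* (-1.02, adjusted p = 0.00131, edgeR), both of the exon junction complex, fell. *Upf3a* had a log2 fold change of -1.06 (adjusted p = 0.0258, edgeR), with an adjusted p of up to 0.0875 when 1 library was left out. *Upf1*, *Smg1*, *Smg6* and *Smg9* were among those that did not pass the threshold.

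Genes for proteins of the nuclear bodies where *Neat1* and *Malat1* reside were mostly lower, again at the level of RNA. Of 11 paraspeckle proteins, 9 were lower and 0 higher (median log2 fold change -0.87), while *Neat1* did not pass the threshold with all libraries and was lower without S04. *Nudt21* (log2 fold change -1.22, adjusted p = 0.00148, edgeR) and *Pspc1* (-1.14, adjusted p = 0.000997, edgeR), a core paraspeckle protein, fell. Of 12 speckle proteins, 8 were lower and 1 higher, with a median of -0.81, while *Malat1* rose. The splicing factors *Srsf7* (log2 fold change -1.46, adjusted p = 0.000326, edgeR), *Srsf3* (-1.29, adjusted p = 0.000437) and *Srrm1* (-1.28, adjusted p = 0.000265) changed most. *Son*, which holds speckles together and was named after its value was seen, was the gene that rose (log2 fold change 0.49). RNase P, which cuts the 3′ end of *Malat1*, had 8 of 10 genes for its protein subunits lower and 0 higher (median -1.10). *Rpp25* (log2 fold change -4.99, adjusted p = 1.83e-06, edgeR), *Pop5* (-2.14, adjusted p = 3.56e-05) and *Rpp40* (-1.96, adjusted p = 0.000171) changed most.

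Other named long noncoding RNAs moved both ways. Of 31, 19 were tested, of which 10 were higher and 4 lower in CPCCs (median log2 fold change 1.05), 8 were listed only for CPCCs and 4 were in neither table. *H19*, an imprinted RNA, rose from between 7.90 and 17.4 to between 2242 and 2874 normalized CPM (log2 fold change 7.63, adjusted p = 1.28e-06, edgeR). The imprinted RNAs *Peg13* (log2 fold change 4.78, adjusted p = 2.99e-06, edgeR) and *Airn* (4.66, adjusted p = 0.000327, edgeR) were higher as well. Both lie within protein-coding genes on the opposite strand, and whether counting used the strand is not given in the sources used here, so their counts are uncertain.

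Genes near the members changed in both directions. The nearest listed gene on each side of the members came to 18 genes other than members, of which 13 were tested. Of these, 9 differed, a share near the 61.4% of all genes tested, and 5 without the mESC library S02. *Rcc1*, which lies 6.18 kb from *Snhg3* on the same strand, had 50.2 to 58.7 CPM in mESCs and 14.8 to 22.8 CPM in CPCCs (log2 fold change -1.51, adjusted p = 0.000197, edgeR). Longer annotated transcripts join both genes, so reads could be shared. *Phactr4*, on the other side of *Snhg3* at 2.24 kb, was higher (0.86, adjusted p = 0.00402, edgeR). *Snhg12* lies 40.9 kb from *Snhg3*, and its nearest gene *Trnau1ap*, at 0.74 kb, was lower (-1.32, adjusted p = 0.000264, edgeR). *Frmd8*, near *Neat1*, was higher (0.76, adjusted p = 0.00749, edgeR). *Smtn*, 100.49 kb from *Tug1*, was higher (1.82, adjusted p = 0.000407, edgeR), and *Wdr74*, 9.51 kb from *Snhg1*, was lower (-0.57, adjusted p = 0.0409, edgeR). *Syncrip* and *Zfp949* on either side of *Snhg5* did not pass the threshold. Near *Miat*, *Snhg8* and *Snhg12*, 5 genes were listed only for CPCCs.

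Genes that start head to head with a member also gave mixed values. *Morc2a*, 0.68 kb from *Tug1*, was lower (log2 fold change -0.53, adjusted p = 0.0305, edgeR) where *Tug1* was higher. *Slc3a2*, an amino acid transporter subunit 0.12 kb from *Snhg1*, was lower (-0.55, adjusted p = 0.0141, edgeR), while *Snhg1* did not pass the threshold. *Zbtb37*, 0.32 kb from *Gas5*, had a log2 fold change of 0.92 (adjusted p = 0.134, edgeR) and did not pass. Annotated genes on the opposite strand overlap *Malat1*, *Miat* and *Snhg3*. They have no entry in either table, so their reads, if any, could be counted with the members.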

How the data were processed

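Bulk RNA-seq libraries of mESCs and CPCCs, 3 each, were made by the authors from polyA+ RNA. The deposited values are the authors' estimated counts per gene, not normalized and summed over alleles, in separate tables for mESCs and CPCCs that list only genes with at least 10 counts over its libraries. The submitters' processing notes name STAR 2.7 and mm10. The counter and its use of strand are not given in the sources used here. The columns carry no sample titles and were assigned to a cell type, not to a replicate, by the cell type that their table is named for.

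Library totals ranged from 6442639 to 11436062 counts, so that 3 counts, the floor, equal 0.262 to 0.466 CPM. Floors and bounds cover counting error only. CPM used the total of each table's library. Counts were rounded, and the 12471 of 13001 shared genes that passed filterByExpr were tested by edgeR 4.0.16 (R 4.3.3, quasi-likelihood, TMM normalization, Benjamini-Hochberg). Normalized CPM includes the TMM factors. A standard error is the log2 fold change over the square root of F. Each library was 1 replicate, and p-values measure only the spread between these libraries. Alternatives were DESeq2 1.42.0, other normalizations, filters, fills for missing genes, a 2-fold threshold and leaving out each library. The test was checked on simulated data in which far fewer genes changed than here, so its error rate in these data was not checked.

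The members and lists were chosen with earlier results of these data known. Named genes are all members, their nearest listed genes, and of each related list up to 3 with the largest change among those past the threshold whose groups did not overlap. Exon lengths and snoRNAs are from GENCODE M21 (GRCm38), with transcripts linked to RefSeq where there were any. The study's single-cell, chromatin and allele data were not analysed here. Some genes that these rules name are not reported here.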

Additional observations from a re-analysis of the deposited data

How the results depend on the processing

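With 3 libraries per cell type, the direction of each of the 9 tested members was kept under all 15 alternatives, and its side of the threshold in 121 of 135 refits, with 13 calls lost and 1 gained. The 2-fold threshold, by its construction, left 3520 genes, 2 members, 31 related genes and 2 nearest genes, against 7656, 7, 86 and 9. DESeq2 gave 7896 genes and the same number of members, 7. Leaving out 1 library gave from 5 to 7 members and from 5 to 9 nearest genes, the 5 in both cases without the mESC library S02. *Gas5* also lost its call with library totals alone (adjusted p = 0.0619, edgeR) and with at least 10 counts in every library (0.0627), and the cause was not tested. Setting missing genes to 0 counts moved the median of all genes to 0.17 and gave 8 members, *Miat* included. As *Miat* was not listed for mESCs, that call follows from the fill and is not a test of *Miat*. The oligopyrimidine tract was found in 3 members at the start and in 6 within 10 bases. No paired analysis was possible because the columns carry no replicate numbers.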
